A study of Mus musculus with 4 samples.

Results

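The immediate early and stress response genes described here are 42 mouse genes of the 32285 counted in the series. These genes were listed by name, chosen with earlier results of these data known. They include 8 AP-1 subunits and partners (Fos, Fosb, Fosl2, Jun, Junb, Jund, Atf3, Maff) and 9 further transcription factors (Egr1, Egr2, Egr3, Nr4a1, Nr4a2, Nr4a3, Klf4, Klf6, Csrnp1). Ier2, Ier3 and Ier5 are in the list with 4 dual-specificity phosphatases (Dusp1, Dusp2, Dusp5, Dusp10) and 4 mRNA decay and antiproliferative factors (Zfp36, Zfp36l1, Btg1, Btg2). The rest are 4 inhibitors of NF-kappaB signalling (Nfkbia, Nfkbiz, Nfkbid, Tnfaip3), 4 stress genes (Gadd45b, Ppp1r15a, Plk2, Plk3), Rgs1, Rgs2 and Cd69, and the chaperones Hspa1a, Hspa1b and Dnajb1. Single-cell RNA sequencing had been done on CD45+ leukocytes of livers labelled healthy, from mice of genotype PA-GFP C57BL/6, whose fluorescent protein is switched on by light. All 4 libraries carry the label photoactivation. The 2 groups compared were PV replicates 1 and 2 from the zone around the portal vein and CV replicates 1 and 2 from the zone around the central vein, with no library of cells that were not photoactivated among them. The labels used here do not give the age of the mice or the number behind a library. Since nothing ties libraries to separate mice, a p-value reflects only how these libraries vary, which can be technical variation.

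Immediate early genes are transcribed within minutes of a stimulus from promoters that need no new protein, through pre-bound or rapidly activated factors such as SRF, CREB and NF-kappaB. Many of their products are transcription factors, and others shut the response down again: DUSP phosphatases inactivate MAP kinases, ZFP36 proteins destabilise AU-rich mRNAs, and Nfkbia and Tnfaip3 restrain NF-kappaB. Inducible chaperones of the HSP70 family are switched on by heat shock factor under proteotoxic stress. In leukocytes these genes respond to activation, and also to the handling of tissue and cells, so single-cell atlases often treat them as a sign of dissociation.

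Promoter sequences of 5 members are shown as examples of opposite class patterns: Zfp36, Nfkbia and Ier3, whose mean levels were highest in neutrophils, and Hspa1a and Hspa1b, which were nearly undetected there. They were chosen with these levels known, and no test ties a sequence to a level. Each is the 150 bases before the annotated start site in RefSeq on GRCm38.p6, 5′ to 3′ on the gene's strand. Capitals mark a CArG box in Zfp36 (chr7:28379229-28379378, minus strand), kappaB sites in Nfkbia (chr12:55492648-55492797, minus strand) and Ier3 (chr17:35821563-35821712, plus strand), and a pair of inverted heat shock units in Hspa1a (chr17:34972157-34972306, minus strand) and Hspa1b (chr17:34959239-34959388, minus strand).
Zfp36: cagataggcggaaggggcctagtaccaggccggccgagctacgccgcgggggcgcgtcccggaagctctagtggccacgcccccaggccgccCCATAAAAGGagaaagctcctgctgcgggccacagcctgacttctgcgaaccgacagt
Nfkbia: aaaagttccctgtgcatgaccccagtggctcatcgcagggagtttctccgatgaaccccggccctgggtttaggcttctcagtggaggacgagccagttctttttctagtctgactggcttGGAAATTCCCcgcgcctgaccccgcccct
Ier3: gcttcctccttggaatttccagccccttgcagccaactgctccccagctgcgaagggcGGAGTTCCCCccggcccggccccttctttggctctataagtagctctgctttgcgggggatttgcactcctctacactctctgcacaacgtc
Hspa1a: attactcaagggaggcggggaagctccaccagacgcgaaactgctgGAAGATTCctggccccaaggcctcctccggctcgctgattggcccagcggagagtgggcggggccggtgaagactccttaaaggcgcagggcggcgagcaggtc
Hspa1b: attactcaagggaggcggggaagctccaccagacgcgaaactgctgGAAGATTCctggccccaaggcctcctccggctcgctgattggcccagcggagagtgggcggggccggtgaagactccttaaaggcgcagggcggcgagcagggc
The marked match begins 58 bases before the start site in Zfp36, 29 in Nfkbia, 92 in Ier3 and 104 in both Hspa1 genes, where a kappaB match also begins 133 bases before it. In the 250 bases before the start site, Hspa1a and Hspa1b share 247 bases (98.8%). Over the same 250 bases of the 36 members with an entry and of all 32851 promoters, searched on both strands, a CArG box was present in 3 members (Dusp5, Egr2, Zfp36) and 1.47% of all promoters. The CRE TGACGTCA was present in 6 members (Btg2, Dusp1, Maff, Nfkbid, Plk2, Ppp1r15a) and 1.55% of all, and the AP-1 site TGANTCA in 3 members and 6.75%. The heat shock pair GAANNTTC or TTCNNGAA was present in 6 members and 12.8%, and the kappaB site in 11 members and 7.25%. A match describes letters in a window and no binding was measured.

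The 4 matrices held 588 to 755 barcodes and 2741760 to 4373488 unique molecular identifiers (UMIs, each a counted transcript end). Several libraries shared barcodes (282 of 1939), and such a barcode was kept only in the library with at least 70% of its UMIs. After filtering, 333 to 512 cells per library and 1593 in all were left, at medians of 5369 to 6317.5 UMIs. Cells were assigned to classes from marker genes that include no member, and UMIs were summed per library and class where at least 10 cells were present. There were 7 classes that had such sums in at least 3 libraries: 753 T cells, 204 Kupffer cells (the resident liver macrophages), 156 B cells, 86 neutrophils, 83 NK cells and ILC1, 82 cDC1 (cross-presenting dendritic cells) and 70 other macrophages. The defining markers were present in each: in the neutrophil sums all 8 markers of that class were detected, at 123841 to 208750 counts per 1e+06 UMIs (CPM), while the 8 T cell markers summed to 0 to 68.9 CPM. NK and ILC1 markers summed to 5857 to 6690 CPM in the neutrophil sums, with 6 to 9 of the 10 at 0. Kupffer markers summed to 22.5 to 2536 CPM in other macrophages. The markers of other macrophages were high in Kupffer cells too, at 17846, 20163 and 16774 CPM in PV replicate 2, CV replicate 1 and CV replicate 2. Clustering placed 47 of the 70 other macrophages in a cluster of that class, 16 with Kupffer cells, 6 with cDC2 and 1 with monocytes. The part of these overlaps in the results was not tested. PV replicate 1 held only 4 Kupffer cells and 7 NK cells and ILC1, so these 2 classes are given by 3 sums.

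Neutrophils devoted the largest share of their UMIs to the 42 genes. In PV replicates 1 and 2 and CV replicates 1 and 2, in this order throughout, members took 7.02%, 3.62%, 5.53% and 5.76% of neutrophil UMIs, against 2.29%, 2.29%, 3.44% and 2.32% in other macrophages and 0.77%, 1.28%, 1.56% and 1.08% in T cells. The neutrophil values lay above all values of the other 6 classes in sums of at least 10 cells. The 4 Kupffer cells of PV replicate 1, below that cut, held 3.624%, beside 3.619% in neutrophils of PV replicate 2. The lowest class was cDC1, with 0.591%, 0.858%, 0.704% and 0.523%. Kupffer cells gave 1.79%, 1.87% and 0.885% in the order PV replicate 2, CV replicate 1 and CV replicate 2, which holds for every value of Kupffer cells and of NK cells and ILC1 below. Counted per cell rather than per UMI, neutrophils did not stand apart: they carried 253, 116, 174 and 159 member UMIs per cell, other macrophages 204, 221, 189 and 144, and cDC1 119, 172, 141 and 106, at median totals of 2531 to 3688.5 UMIs per neutrophil and 21283 to 22855 per cDC1. All levels and differences below are relative to the UMIs of the same sum.

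**Figure D1:**
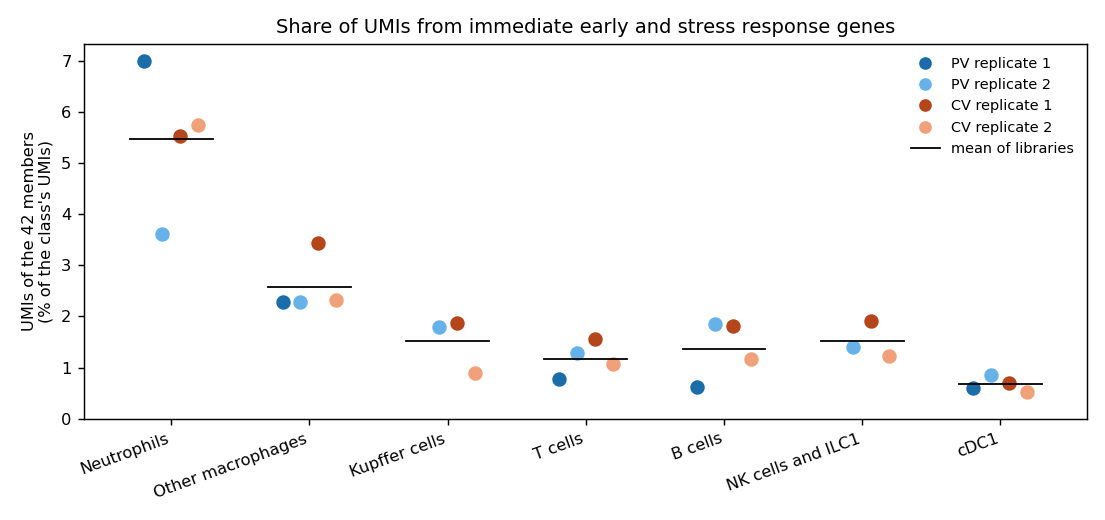
Share of all UMIs that came from the 42 genes, in percent (y axis), per class (x axis), with 1 point per library sum of at least 10 cells and a line at the mean of the libraries. Neutrophils sit between 3.62% and 7.02%, above every point of the other classes.

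All 40 members that passed the filter on low counts differed among the 7 classes in edgeR's quasi-likelihood test with Benjamini-Hochberg adjustment over all genes, where 90.1% of all genes tested did. Egr2 and Maff did not pass that filter. Each class was then set against the unweighted mean of the other 6, so the 7 contrasts share their sums, and a gene high in 1 class is pulled lower in the rest. In neutrophils 29 of 40 members (72.5%) were higher and 7 (17.5%) lower, where 18.9% and 38.1% of all genes were, and the members' median log2 difference was 2.14 beside -0.93 for all genes. In other macrophages 18 were higher and 5 lower (24.7% and 5.83% of all genes), with a median of 0.53. Calls in either direction made up 57% of all genes in neutrophils, 30.5% in other macrophages, 53.7% in T cells, 34.2% in B cells, 47.1% in Kupffer cells, 24.2% in NK cells and ILC1 and 49% in cDC1. T cells had 12 higher and 11 lower (41.6% and 12.1% of all genes), and B cells 11 and 12 (22.8% and 11.4%). Kupffer cells had 7 and 12 (31.9% and 15.3%), NK cells and ILC1 5 and 10 (16.4% and 7.84%), and cDC1 8 and 20 (37.2% and 11.8%). A gene passed the filter through the classes in which it was high, so these counts describe the members and support nothing further.

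The scaling changed the split in T cells: with DESeq2's size factors 9 members were higher and 15 lower there (29.9% and 17% of all genes), and the share of higher calls among all genes called went from 77.5% to 63.7%. That scaling shifted the median of all genes by -0.24 in T cells to 0.24 in neutrophils, while the members' median relative to all genes stayed at 3.07 and 3.09 in neutrophils. Because neutrophils stood so far from the rest, the contrasts were also run without their sums, a setting chosen after the values were seen. Other macrophages then had 21 of 39 members higher and 2 lower (21.5% and 9.1% of all genes), T cells 13 and 10 (29.4% and 15%), and B cells 13 and 8 (19.2% and 15.4%). Kupffer cells had 13 and 12 (30.7% and 23.2%), NK cells and ILC1 8 and 9 (13.5% and 10.6%), and cDC1 6 and 18 (26.2% and 18.2%). By mean level, 26 of the 42 members were highest in neutrophils, 8 in other macrophages, 4 in NK cells and ILC1, 3 in B cells and 1 in cDC1, and for 15 of the 26 no neutrophil library overlapped the class in second place. Of the 40 members that passed the filter, 25 were highest in neutrophils and 15 without such overlap, where 18.3% and 7.81% of all genes tested were.

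**Figure D2:**
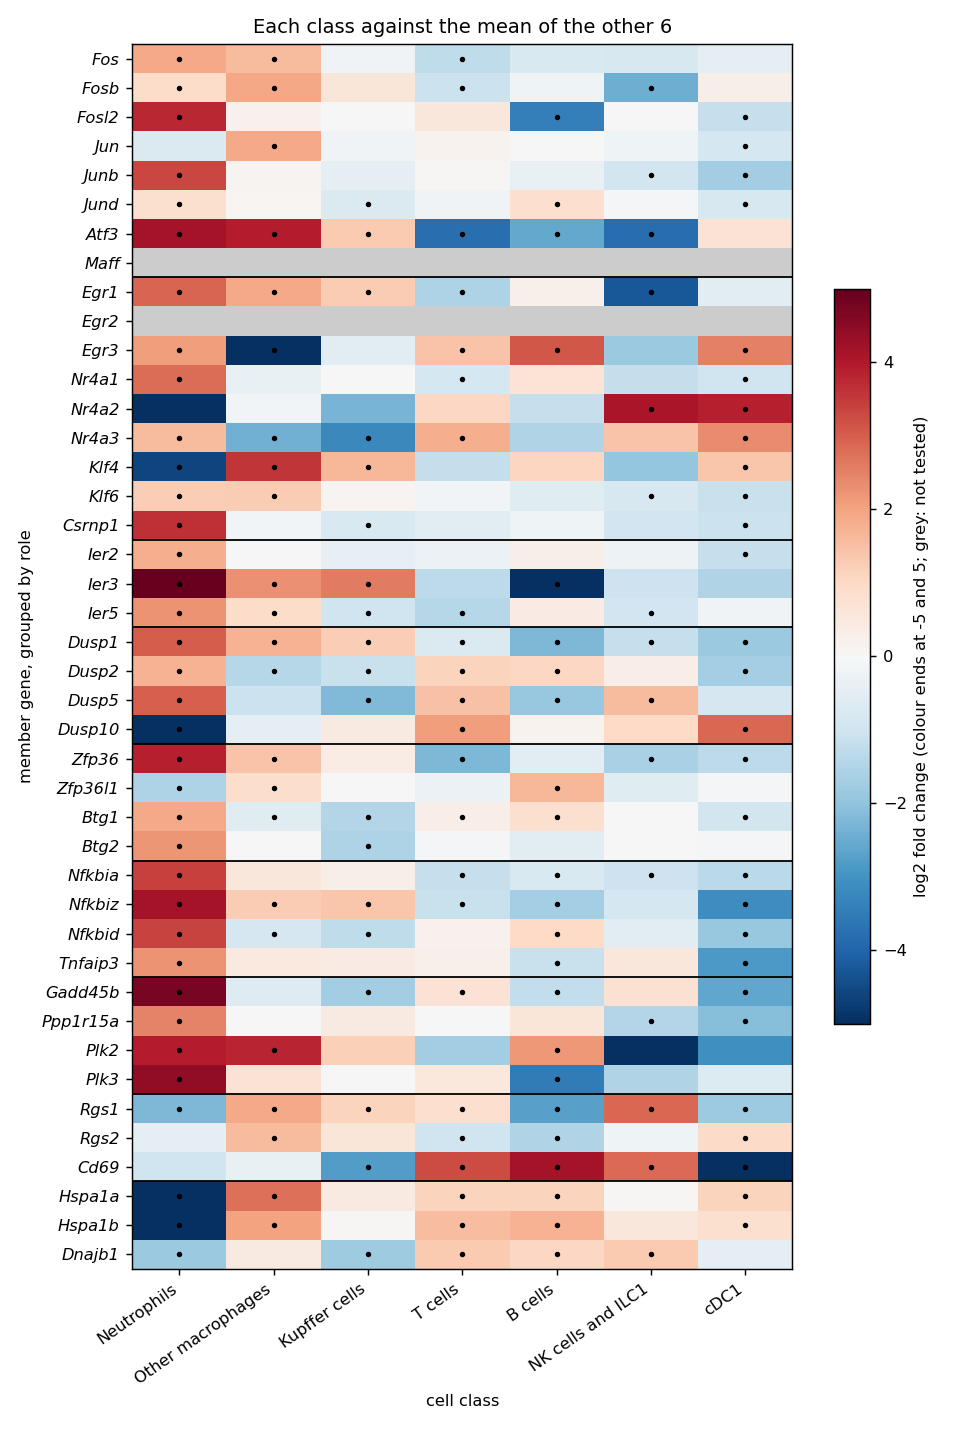
Log2 difference of each member (y axis, by role) between a class (x axis) and the mean of the other 6 classes, as colour that ends at -5 and 5, with a dot where the adjusted p passed 0.05 and grey for Maff and Egr2, which were not tested. The neutrophil column holds 29 higher and 7 lower members, among them Hspa1a and Hspa1b.

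AP-1 is a dimer of FOS-family and JUN-family proteins, and its subunits did not share a class pattern. Junb, which restrains Jun activity and is needed for granulocyte homeostasis, measured 9812, 5232, 7005 and 8526 CPM in neutrophils and 535, 1097, 1434 and 856 in T cells (3.34 ± 0.23, adjusted p = 1.58e-14, for the log2 difference ± SE of neutrophils from the mean of the other classes). All 4 neutrophil values were above every value of every other class. Among the classes tested, Jun itself was highest in other macrophages, at 1348, 2117, 2493 and 1702 CPM (1.91 ± 0.22, adjusted p = 1.41e-08). In neutrophils Jun measured 642, 104, 431 and 289.8, which did not pass (-0.74 ± 0.32, adjusted p = 0.0505).

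Fos, the founding partner of Jun, measured 4698, 2772, 1344 and 3139.8 CPM in neutrophils (1.89 ± 0.33, adjusted p = 1.02e-05) and 2403, 2635, 3546 and 1893 in other macrophages (1.58 ± 0.30, adjusted p = 6.58e-05). The 2 classes overlapped, and T cells were lower than the mean of the rest, at 171, 653, 609.9 and 365 (-1.25 ± 0.35, adjusted p = 0.00259). Fos in neutrophils came to 1.13 without PV replicate 1 and 2.55 without CV replicate 1. Fosb, a paralog of Fos, was higher in other macrophages, at 322, 588, 835 and 604 CPM (1.95 ± 0.26, adjusted p = 2.16e-07), and in neutrophils (0.90 ± 0.34, lost without PV replicate 1 and 1.63 without CV replicate 1). It was lower in NK cells and ILC1 (-2.45 ± 0.47, and -4.28 without CV replicate 1) and T cells (-1.09 ± 0.27). Fosl2, a FOS-related subunit, was higher in neutrophils alone among the 7 contrasts (428, 699, 526 and 773 CPM, 3.75 ± 0.29, adjusted p = 4.6e-13) and was nearly undetected in B cells, with 0, 0, 3 and 1 UMIs.

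Atf3, a stress-induced partner of AP-1 that restrains inflammatory genes, was higher in neutrophils and both macrophage classes. It measured 2129, 855, 1008 and 1546 CPM in neutrophils (4.18 ± 0.30, adjusted p = 6.56e-14). It measured 1190.4, 1002, 1452 and 846 CPM in other macrophages (3.93 ± 0.28, adjusted p = 1.26e-13) and 321, 229.9 and 168 in Kupffer cells (1.32 ± 0.35, adjusted p = 0.00192). Every one of these values was above all 7 values of T cells (2.92, 16, 3.78 and 15) and NK cells and ILC1 (39.8, 7.62 and 0). Without PV replicate 2 the 3 myeloid differences became 5.78, 5.35 and 2.49, and the calls in T cells (-3.79 ± 0.61) and in NK cells and ILC1 (-3.81 ± 0.81) were lost. Without CV replicate 2 those were -4.55 and -3.14. Jund, a further JUN protein, was higher in neutrophils (0.79 ± 0.17) and B cells (0.85 ± 0.16, 3 of 4 libraries) and lower in cDC1 (-0.79 ± 0.18) and Kupffer cells (-0.72 ± 0.20, lost without CV replicate 1 and without CV replicate 2).

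In other macrophages, single cells carried much of these sums: the highest cell held 27.4% to 52.6% of Fos UMIs, 24.5% to 53.8% of Jun UMIs and 37.1% to 60.8% of Atf3 UMIs in a library. After each cell was thinned to 2000 UMIs, Fos, Jun and Atf3 were still called higher there, by 1.56, 2.05 and 3.93. Maff, a small MAF protein, had at most 17 UMIs in any library sum of the 7 classes and reached 77.5 CPM in neutrophils of CV replicate 1.

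Among the other transcription factors, the NR4A receptors split by class. Nr4a1, an orphan nuclear receptor induced by antigen and inflammatory signals, measured 1675, 363, 1551 and 1353 CPM in neutrophils (2.78 ± 0.31, adjusted p = 3.58e-09). Its relative Nr4a2 had 0 UMIs in 275467 neutrophil UMIs, which allows up to 10.9 CPM, and was higher in cDC1 at 89.6, 49.96, 76.6 and 24.6 CPM (3.90 ± 0.49, adjusted p = 6.83e-08) and in NK cells and ILC1 at 26.5, 137 and 104 (4.07 ± 0.62, adjusted p = 6.23e-06). Nr4a3, the third of the family, was higher in cDC1 (2.36 ± 0.33, 3 of 4 libraries) and T cells (56.1, 98.2, 111 and 29.9 CPM, 1.80 ± 0.29, adjusted p = 3.53e-06) and lower in Kupffer cells (-3.23 ± 0.64). So in these cells cDC1 were lower for Nr4a1 (-1.01 ± 0.36) and higher for the other two, and neutrophils were higher for Nr4a1 and had no UMI of Nr4a2. Nr4a3 was also called higher in neutrophils (1.57 ± 0.55), at 151, 0, 86.2 and 24.2 CPM and with 3 of 4 libraries on that side. That call was lost without PV replicate 1. Nr4a1 in neutrophils came to 2.15 without PV replicate 1 and 3.39 without PV replicate 2, and Nr4a2 in NK cells and ILC1 to 4.94 without PV replicate 2. The call for Nr4a1 in cDC1 was lost without CV replicate 1 and without the neutrophil sums.

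Klf4, a factor of monocyte and macrophage differentiation, was higher in other macrophages (112, 449, 859 and 524 CPM, 3.57 ± 0.35, adjusted p = 3.57e-10) and Kupffer cells (224, 201 and 109.6, 1.67 ± 0.40, adjusted p = 0.000704, 2.32 without CV replicate 1). In neutrophils it had 1 UMI in all. Of the UMIs of Klf4 and Klf6 together, Klf6 held 69.1% in other macrophages, 75.9% in Kupffer cells, 94.2% in T cells and 99.6% in neutrophils. Klf6, a broadly expressed relative, was itself higher in neutrophils (1.21 ± 0.23) and other macrophages (1.28 ± 0.20). Klf4 in cDC1 also passed (1.41 ± 0.44), with only 2 of 4 libraries on that side, and was lost without PV replicate 1, without PV replicate 2 and without the neutrophil sums, while it came to 2.09 without CV replicate 1. Csrnp1, a nuclear protein first described as induced by AXIN, was higher in neutrophils (579, 311, 551 and 556 CPM, 3.65 ± 0.26, adjusted p = 5.84e-14). These values were above every value of the other classes tested, where it reached at most 84.7 CPM. In cDC2, which were not tested, it reached 155 CPM.

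The EGR zinc finger factors, induced through SRF, were uneven between libraries. Egr1 in neutrophils measured 2078, 25.9, 922 and 193 CPM, so PV replicate 2 rested on 1 UMI while PV replicate 1 held 165. The difference passed (2.92 ± 0.45, adjusted p = 1.7e-06) with 3 of 4 libraries on its side and ran from 2.0 without PV replicate 1 to 3.85 without CV replicate 1, with 3.51 without PV replicate 2. Egr1 was also higher in the macrophages, at 217, 639, 726 and 201 CPM in other macrophages (1.91 ± 0.44, adjusted p = 0.000887) and 453, 356 and 119 in Kupffer cells (1.28 ± 0.45, adjusted p = 0.0194, lost without PV replicate 2 and 2.06 without CV replicate 1). NK cells and ILC1 had 4 Egr1 UMIs in all. Egr3, a paralog prominent in activated lymphocytes, was higher in B cells at 11.7, 213, 98.8 and 44.9 CPM (3.12 ± 0.47, adjusted p = 2.93e-06, 3 of 4 libraries, and 2.39 without PV replicate 2) and in cDC1 at 62.6, 90.8, 23 and 45.1 (2.52 ± 0.45, adjusted p = 2.26e-05). T cells also had Egr3 called higher (1.41 ± 0.47, adjusted p = 0.0116), a call lost without PV replicate 2 or CV replicate 2. In neutrophils a higher call of Egr3 (2.08) was lost without CV replicate 1. Other macrophages had 0 Egr3 UMIs, which allows up to 5.48 CPM, beside 257 of Egr1. Egr2 had at most 20 UMIs in a library sum, 60.5 CPM at the most, and none in neutrophils.

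Ier3, an anti-apoptotic protein, showed the largest positive difference of all members in neutrophils. It measured 1499, 363, 1861 and 845 CPM there (6.15 ± 0.31, adjusted p = 2.84e-17), and came to 7.23 without CV replicate 2. Other macrophages (247, 82.1, 72.6 and 20.1 CPM, 2.29 ± 0.51, 3 of 4 libraries) and Kupffer cells (114, 144 and 80.6 CPM, 2.61 ± 0.43) were higher too. Without CV replicate 2 these became 3.48 and 3.71. B cells had 0 Ier3 UMIs in 627780 UMIs, which allows up to 4.78 CPM, and T cells 13.1, 13.8, 11.3 and 4.15 CPM, below every value of neutrophils and of the 2 macrophage classes. Ier5 and Ier2, small nuclear proteins of the same naming group, were higher in neutrophils (2.25 ± 0.22 and 1.82 ± 0.23). Ier5 was also higher in other macrophages (0.93 ± 0.23) and lower in T cells (-1.42 ± 0.24), and Ier2 was lower in cDC1 (-1.16 ± 0.25).

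The dual-specificity phosphatases are feedback inhibitors of MAP kinases, and each had its own class pattern. Dusp1, which inactivates p38 and JNK, measured 7243, 3005, 3920.2 and 4541 CPM in neutrophils (3.03 ± 0.26, adjusted p = 5.97e-12, 2.29 without PV replicate 1). It measured 1714, 1586, 4236 and 2014 CPM in other macrophages (1.73 ± 0.25, adjusted p = 1.17e-06) and 2271, 2543 and 1270.5 in Kupffer cells (1.22 ± 0.28, adjusted p = 0.000524). B cells, at 70.1, 298, 198 and 162, were lower (-2.24 ± 0.36, adjusted p = 5.95e-06), and the values of B cells and Kupffer cells did not overlap. Dusp2, which acts in the nucleus on ERK and p38, was higher in T cells at 309, 383, 353 and 297 CPM (1.10 ± 0.28, adjusted p = 0.00137) and in neutrophils (1.73 ± 0.37, 3 of 4 libraries) and lower in cDC1 (-1.68 ± 0.42, -2.47 without PV replicate 1). Less stable calls of Dusp2 were higher in B cells (1.05, lost without PV replicate 2, CV replicate 1 or CV replicate 2). They were lower in Kupffer cells (-1.12, lost without CV replicate 2) and other macrophages (-1.42, lost without CV replicate 1 or CV replicate 2). As a share of the UMIs of Dusp1 and Dusp2, Dusp1 held 36.2% in B cells, 58.0% in T cells, 88.4% in neutrophils and 95.7% in other macrophages.

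Dusp5, a nuclear ERK phosphatase, was higher in neutrophils (629.8, 77.7, 353 and 531 CPM, 2.98 ± 0.34, adjusted p = 4.43e-09). So were T cells (84.6, 139, 221 and 104, 1.47 ± 0.25, adjusted p = 5.99e-06) and NK cells and ILC1 (252, 267 and 92, 1.60 ± 0.39, adjusted p = 0.00201, lost without CV replicate 1). Kupffer cells (-2.21 ± 0.44) and B cells (-1.91 ± 0.57) were lower. Dusp10, a JNK and p38 phosphatase, was the member whose highest mean was in cDC1, at 18.5, 27.3, 103 and 73.8 CPM (2.86 ± 0.43, adjusted p = 1.65e-06), with T cells also higher at 20.4, 45.1, 53.9 and 28.2 (2.07 ± 0.41, adjusted p = 7.89e-05). Both CV libraries of cDC1 were above both PV libraries. Neutrophils had 0 Dusp10 UMIs, which allows up to 10.9 CPM, so the 4 phosphatases did not share a class pattern.

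Zfp36 and its paralog Zfp36l1, which bind AU-rich elements and speed mRNA decay, went in opposite directions in neutrophils. Zfp36 measured 8212, 2746, 6126 and 7052 CPM there (3.89 ± 0.21, adjusted p = 2.34e-17), and its lowest neutrophil value was above the highest value of any other class. Zfp36l1 measured 151, 129.5, 94.8 and 266 CPM and was lower (-1.55 ± 0.33, adjusted p = 0.000175). Of the UMIs of the pair, Zfp36 took 97.8% in neutrophils, 70.4% in Kupffer cells, 70.4% in other macrophages, 35.1% in T cells and 33.1% in B cells. Among the classes tested, Zfp36l1 was highest in B cells, at 455, 1075, 821 and 732 CPM (1.66 ± 0.20, adjusted p = 1.56e-08), where it is known to shape development. Zfp36 was lowest in T cells, at 80.2, 146, 175 and 132 (-2.25 ± 0.28, adjusted p = 2.29e-08).

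Btg1 and Btg2, antiproliferative factors that recruit the deadenylase complex, were both higher in neutrophils. Btg1 measured 4824, 5595, 4808 and 6545 CPM (1.89 ± 0.14, adjusted p = 7.86e-14) and Btg2 2418, 2616, 1878 and 1980.5 (2.19 ± 0.21, adjusted p = 4.55e-11), all above every value of the other classes. Kupffer cells were lower for both, at 842, 938 and 538 CPM of Btg1 (-1.47 ± 0.19) and 435, 246 and 93.5 CPM of Btg2 (-1.55 ± 0.28). Btg1, which is known for keeping lymphocytes quiescent, was also higher in B cells (1821, 2533, 2319 and 2604 CPM, 0.80 ± 0.14, adjusted p = 3e-05). In T cells its call (0.34 ± 0.14) was lost with DESeq2's size factors and without PV replicate 2, CV replicate 1 or CV replicate 2.

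The inhibitors of NF-kappaB signalling were all higher in neutrophils. Nfkbia, the inhibitor that holds NF-kappaB in the cytoplasm and is itself an NF-kappaB target, measured 6613, 2461, 6893 and 5893 CPM (3.42 ± 0.22, adjusted p = 2.08e-15), PV replicate 2 being the lowest and still above every value of the other classes. Nfkbiz, a nuclear cofactor of secondary response genes, measured 2091, 1088, 1947 and 1811 CPM (4.15 ± 0.19, adjusted p = 1.74e-19). The macrophages followed at 187, 302, 290.5 and 423 in other macrophages (1.27 ± 0.23) and 435, 433 and 203 in Kupffer cells (1.38 ± 0.21). In cDC1 it measured 9.96, 22.7, 23 and 8.2 and was lower (-3.12 ± 0.32, adjusted p = 5.53e-10).

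Nfkbid, another nuclear inhibitor protein, measured 919, 673, 982 and 749 CPM in neutrophils (3.37 ± 0.21, adjusted p = 7.34e-16) and was also called higher in B cells (0.99 ± 0.23, 3 of 4 libraries, lost without PV replicate 2). Tnfaip3, the ubiquitin-editing enzyme A20, measured 756, 233, 870.2 and 749 CPM in neutrophils (2.25 ± 0.29, adjusted p = 4.74e-08) and 27, 18.2, 23 and 12.3 in cDC1 (-2.87 ± 0.39, adjusted p = 1.65e-07). The same 4 genes were all lower in cDC1 (Nfkbia -1.34 ± 0.29, Nfkbid -1.90 ± 0.29). Nfkbia was called lower in NK cells and ILC1 (-1.03 ± 0.34) with 2 of 3 libraries on that side. It was lost without CV replicate 1 or CV replicate 2, came to -1.94 without PV replicate 2, and was not called once the neutrophil sums were left out (-0.53 ± 0.30, adjusted p = 0.233).

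Gadd45b, which activates MAP3K4 upstream of p38 and JNK, came next after Ier3 among the positive differences in neutrophils, at 4056, 881, 4093 and 3043 CPM (4.74 ± 0.27, adjusted p = 7.76e-17). T cells, at 160.4, 310.0, 295 and 150.3, and other classes were all below the lowest neutrophil value. It was lower in cDC1 (-2.59 ± 0.44, -3.90 without PV replicate 1) and Kupffer cells (-1.75 ± 0.42, not called after thinning). Ppp1r15a, the GADD34 subunit that reverses eIF2alpha phosphorylation, was higher in neutrophils (919, 569.9, 663 and 604 CPM, 2.47 ± 0.25, adjusted p = 2.27e-10) and lower in cDC1 (-2.11 ± 0.31) and in NK cells and ILC1 (-1.46 ± 0.39, lost without CV replicate 2).

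The polo-like kinases Plk3 and Plk2, both stress-responsive, differed in where else they were found. Plk3 was higher in neutrophils (252, 259, 319 and 217 CPM, 4.44 ± 0.34, adjusted p = 2.48e-13, 5.09 without PV replicate 2), where the lowest value was above every value of the other classes. Plk2 was higher in neutrophils (113, 181, 138 and 411 CPM, 3.92 ± 0.70, adjusted p = 1.99e-05, 4.69 without PV replicate 1) and in other macrophages (367, 95, 145 and 40.3, 3.81 ± 0.59, adjusted p = 4.35e-06), with overlapping values. Plk2 was called higher in B cells too (2.17), a call lost without CV replicate 1 and at 2.96 without PV replicate 1. NK cells and ILC1 had 0 Plk2 UMIs, which allows up to 8.11 CPM.

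Rgs1, Rgs2 and Cd69 act on cell migration and retention. Rgs1, which damps G protein signalling from chemokine receptors and is abundant in tissue lymphocytes, measured 2982, 3146 and 1422 CPM in NK cells and ILC1 (2.89 ± 0.35, adjusted p = 6.51e-08) and 1512, 1417, 581 and 1188 in other macrophages (1.89 ± 0.35, adjusted p = 4.72e-05). Of the Rgs1 and Rgs2 UMIs, Rgs1 took 87.3% in NK cells and ILC1, 79.5% in T cells, 66.2% in Kupffer cells and 24.1% in cDC1. Rgs2, a relative that acts on Gq, was higher in other macrophages at 1258, 363, 908 and 483 CPM (1.59 ± 0.31, adjusted p = 9.46e-05, 1.0 without PV replicate 1) and in cDC1 (0.94 ± 0.29, lost without PV replicate 2 or CV replicate 2). In neutrophils Rgs1 came from 1 cell in each PV library (151, 440.3, 0 and 0 CPM), and its lower call there (-2.23 ± 0.60) was lost without CV replicate 1 and came to -3.18 without PV replicate 2.

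Cd69, the receptor that antagonises S1PR1 and retains lymphocytes in tissue, measured 210.2, 484, 737 and 561 CPM in B cells (4.14 ± 0.26, adjusted p = 4.8e-15). It measured 236, 321, 365 and 222 CPM in T cells (3.27 ± 0.24, adjusted p = 1.75e-13) and 331, 213 and 405 in NK cells and ILC1 (2.81 ± 0.34, adjusted p = 6.17e-08). Among the classes tested, all lymphocyte values lay above all values of the myeloid classes, where Cd69 reached at most 90.6 CPM. Plasmacytoid dendritic cells, which were not tested, measured 582 CPM in their only sum of at least 10 cells. In cDC1 it had 1 UMI in all, and none was seen in the 82 cDC1 after thinning. Kupffer cells had 10, 5 and 2 UMIs, and their lower call (-2.79 ± 0.84) was lost with doublets left out, after thinning and with PV replicate 1 left out of the fit.

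The inducible chaperones were lower in neutrophils, where 29 other members were higher. Hspa1a, an HSP70 protein that refolds damaged proteins, had 0, 0, 1 and 1 UMIs in neutrophils, 7.26 CPM over the 4 sums (95% Poisson interval 0.879 to 26.2). Hspa1b, a neighbouring gene that encodes a nearly identical protein, had 0, 1, 2 and 0 UMIs, 10.9 CPM (2.25 to 31.8). The intervals cover counting error only. In T cells Hspa1a measured 374, 599.7, 866 and 572 CPM and Hspa1b 821, 1039, 1572 and 1177, so both were far above the neutrophil intervals in every library. Among cells thinned to 2000 UMIs, 2 of 81 neutrophils and 279 of 737 T cells carried a Hspa1a UMI; 5 neutrophils and 16 T cells were too shallow to enter. Unthinned, the share of T cells with a Hspa1a UMI was 36.5%, 47.3%, 54.6% and 58% and that of neutrophils 0%, 0%, 2.7% and 6.67%.

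Among the classes tested, other macrophages were the highest for Hspa1a, at 2134, 1495, 2348 and 1208 CPM (2.76 ± 0.27, adjusted p = 2.78e-10). They were also higher for Hspa1b, at 1549.8, 1033, 3522 and 1259 (2.01 ± 0.25, adjusted p = 7.36e-08). One cell held 38.9% to 47.4% of the Hspa1a UMIs of a library there, and after thinning the differences were 2.93 and 2.20. Hspa1a and Hspa1b were also called higher in T cells, B cells and cDC1, but most of these calls were lost without the neutrophil sums. Single libraries ended some of them too: Hspa1a in T cells without CV replicate 1, in B cells and cDC1 without PV replicate 2, and Hspa1b in cDC1 without PV replicate 1, PV replicate 2 or CV replicate 1. Without those sums Hspa1a came to -0.077 in T cells, 0.065 in B cells and -0.14 in cDC1, and Hspa1b to 0.37 in T cells and -0.45 in cDC1, none of them past the test. In B cells Hspa1b still passed, at 0.65 ± 0.23, adjusted p = 0.0298.

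Dnajb1, the HSP40 partner of HSP70, was higher in T cells (122, 336, 298 and 243 CPM, 1.3 ± 0.26, adjusted p = 7.98e-05) and lower in Kupffer cells (65.1, 69.9 and 16.1, -1.78 ± 0.41, adjusted p = 0.00047). Higher calls in B cells (1.04) and in NK cells and ILC1 (1.29) depended on single libraries. The first was lost without PV replicate 2 and the second without CV replicate 1 or CV replicate 2. In neutrophils Dnajb1 had 3, 3, 5 and 1 UMIs and was lower (-1.87 ± 0.64, adjusted p = 0.0133, lost without CV replicate 1 or CV replicate 2). The Hspa1 transcripts share 58.8% of the 50-base words of Hspa1a and 62.3% of those of Hspa1b, but 0% in their last 400 bases, the end that these 3′ libraries count, and Hspa1a took 32.1% to 52.3% of the pair's UMIs in the 6 classes other than neutrophils. How the authors' counting treated reads that match both genes is not given in the sources used here.

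**Figure D3:**
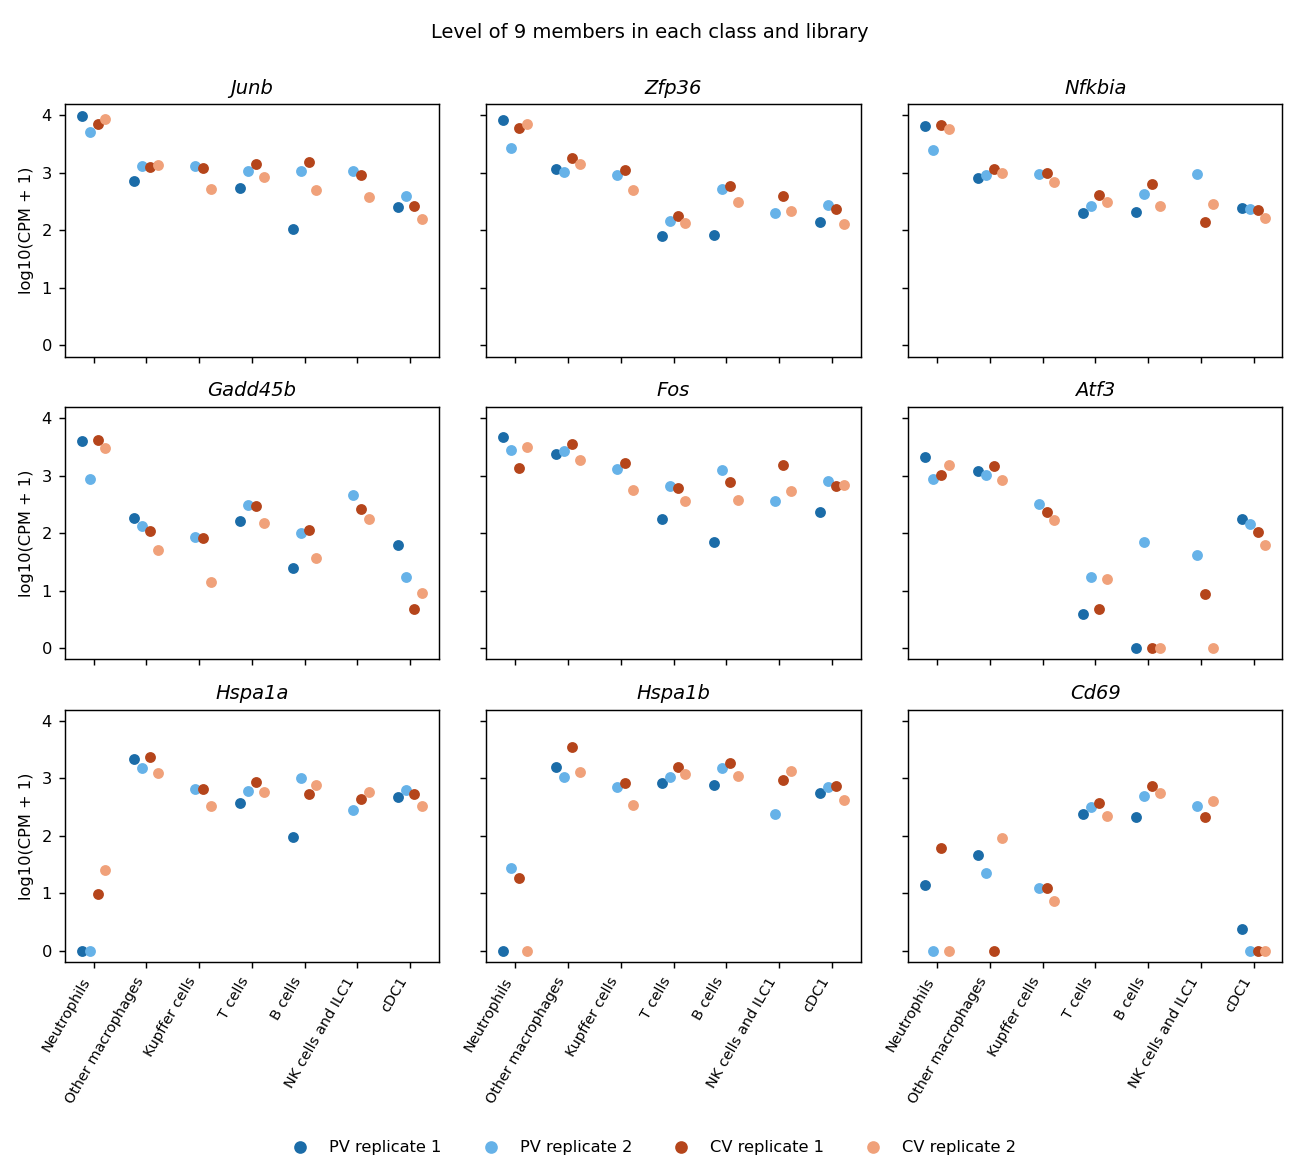
Level of 9 members as log10(CPM + 1) (y axis) in each class (x axis), with 1 point per library sum. Among the classes tested, Junb, Zfp36, Nfkbia and Gadd45b are highest in neutrophils and Cd69 in the 3 lymphocyte classes. Hspa1a and Hspa1b are lowest in neutrophils.

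Other genes of the same pathways, 87 in 7 lists, were read beside the members. Of 67 tested, 59 differed among the classes, against 90.1% of all genes. In neutrophils 25 of the 67 were higher and 18 lower, where 18.9% and 38.1% of all genes were. Among further immediate early genes 9 of 16 were higher and 4 lower, with Mcl1, a survival protein, at 3.28 ± 0.11, adjusted p = 4.26e-23 and the kinase Pim1 at 3.58 ± 0.15, adjusted p = 2.81e-20, and among NF-kappaB subunits and regulators 5 of 10 were higher and 1 lower, with Bcl3 at 3.78 ± 0.43, adjusted p = 4.09e-09. Of genes of the integrated stress response 4 of 7 were higher and none lower, among them Gadd45a (5.11 ± 0.37, adjusted p = 5.98e-14). A list of other chaperones and heat shock genes, which holds constitutive and stress-inducible ones together, had the lowest median of the 7: 8 of 10 were lower in neutrophils and none higher, with Hsp90ab1 at -3.67 ± 0.27, adjusted p = 7.31e-14 and Hspa8 at -2.25 ± 0.19, adjusted p = 3.4e-12, and their median was -2.64 beside -0.93 for all genes.

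In other macrophages, where 24.7% of all genes were higher and 5.83% lower, 7 of these 10 chaperone genes were higher and none lower, with Hsp90aa1 at 1.36 ± 0.21, adjusted p = 2.07e-06 and Hspe1 at 1.31 ± 0.23, adjusted p = 2.5e-05. Of 8 further AP-1 and CREB or ATF genes 5 were higher there and none lower, among them Maf (3.36 ± 0.23, adjusted p = 3.91e-14). T cells had 22 of the 67 pathway genes higher and 17 lower, where 41.6% and 12.1% of all genes were, with 8 of the 10 chaperone genes higher and 1 lower. In neutrophils and in other macrophages the chaperone genes of this list that passed went in the direction of Hspa1a and Hspa1b. The lists were chosen with earlier results of these data known and rest on the same sums, so this is no independent support.

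Between the zones, no member passed the test in any of the 6 classes that could be fitted. In edgeR the background was 0% of all genes in T cells, B cells, cDC1, neutrophils and all macrophages, and 0.559% in other macrophages. At an unadjusted p under 0.05 there were 8 members in T cells, 3 in B cells, 10 in cDC1, 2 in all macrophages, 0 in neutrophils and 5 in other macrophages, and DESeq2 also called no member in any of them. With 1 PV library against 2 CV libraries, after PV replicate 2 was left out, 16 of 41 members passed in T cells (0.816% of all genes), 13 of 29 in B cells (0.805%) and 8 of 30 in cDC1 (1.74%). In the same setting 6 of 37 passed in all macrophages (4.55%) and 4 of 31 in other macrophages (3.48%). Without PV replicate 1 there were 8 of 31 in neutrophils (3.57%), and without CV replicate 2 there were 13 of 42 in T cells (0.496%). In the other pairs of a class and a left-out library 0 to 5 members passed, with 0% to 1.44% of all genes, the 5 in cDC1 without CV replicate 1 (1.26%).

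In T cells the member with the smallest p was Egr3, at 51, 45.8, 23.6 and 18.3 CPM (1.18 ± 0.26, adjusted p = 0.999 for PV against CV), and both PV values were above both CV values. Hspa1b (821, 1039, 1572 and 1177 CPM, -0.60 ± 0.16), Nfkbia (203, 269, 407 and 311 CPM, -0.64 ± 0.19) and Nfkbiz (41.6, 58.2, 83.2 and 68.1 CPM, -0.63 ± 0.22) had both CV values above both PV values, each with an adjusted p of 0.999. Of 40 members tested in T cells, 7 had a positive and 33 a negative estimate, with a median of -0.35 beside -0.0080 for all genes.

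In cDC1 the estimates were largest for Dusp10 (18.5, 27.3, 103 and 73.8 CPM, -1.94 ± 0.40, adjusted p = 0.324) and Rgs1 (118, 216, 45.9 and 0 CPM, 2.82 ± 0.64, adjusted p = 0.411). The 2 zones did not overlap for either, the Dusp10 values lying above in the CV and the Rgs1 values in the PV libraries. With the replicate number as a block both passed, Dusp10 at -1.95 ± 0.41, adjusted p = 0.0414 and Rgs1 at 2.78 ± 0.51, adjusted p = 0.0109, where 0.314% of all genes did. The labels do not say that equal numbers pair libraries, and same-numbered libraries deviated together with a correlation of only 0.109 in cDC1.

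For all macrophages 33 of 36 estimates were above 0 (median 0.43, all genes 0.0064), and the 3 smallest p were those of Plk2, Atf3 and Dnajb1. Plk2 measured 323, 60.5, 49.4 and 12.2 CPM (2.46 ± 0.92, adjusted p = 0.9998) and Atf3 1100.3, 461, 422 and 332 (1.13 ± 0.48, adjusted p = 0.9998). With the replicate number as a block Plk2 passed, at 2.65 ± 0.41, adjusted p = 0.0455, where 0.0869% of all genes did. That block assumes a pairing that the labels do not state, and the correlation of same-numbered libraries was 0.016 here. The makeup of these sums differed in 1 library, and its part in the estimates was not tested: other macrophages made up 78.9% of the macrophages of PV replicate 1 (15 of 19 cells) and 17.4%, 22.4% and 32.0% in the other 3 libraries. Within other macrophages alone only 7 of 28 estimates were above 0 (median -0.29), and Dusp1, with the smallest p, measured 1714, 1586, 4236 and 2014 CPM (-0.90 ± 0.37, adjusted p = 0.5). Within Kupffer cells, without PV replicate 1, 31 of 36 were above 0 and 1 member passed, Btg2 at 435, 246 and 93.5 CPM (log2 difference 1.29, adjusted p = 0.0169), where 0.125% of all genes did, with 1 PV library against 2.

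In B cells the smallest p was that of Rgs2 (0, 63.9, 175 and 148 CPM, -1.92 ± 0.60, adjusted p = 0.9999), both PV values lying below both CV values. In neutrophils it was that of Fos, at 4698, 2772, 1344 and 3139.8 CPM (0.79 ± 0.46, adjusted p = 0.999), with overlapping zones. The zone difference itself was compared between all macrophages and T cells, where 0 of 42 members passed (0% of 9415 genes), 10 had an unadjusted p under 0.05 and 38 estimates were above 0.

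**Figure D4:**
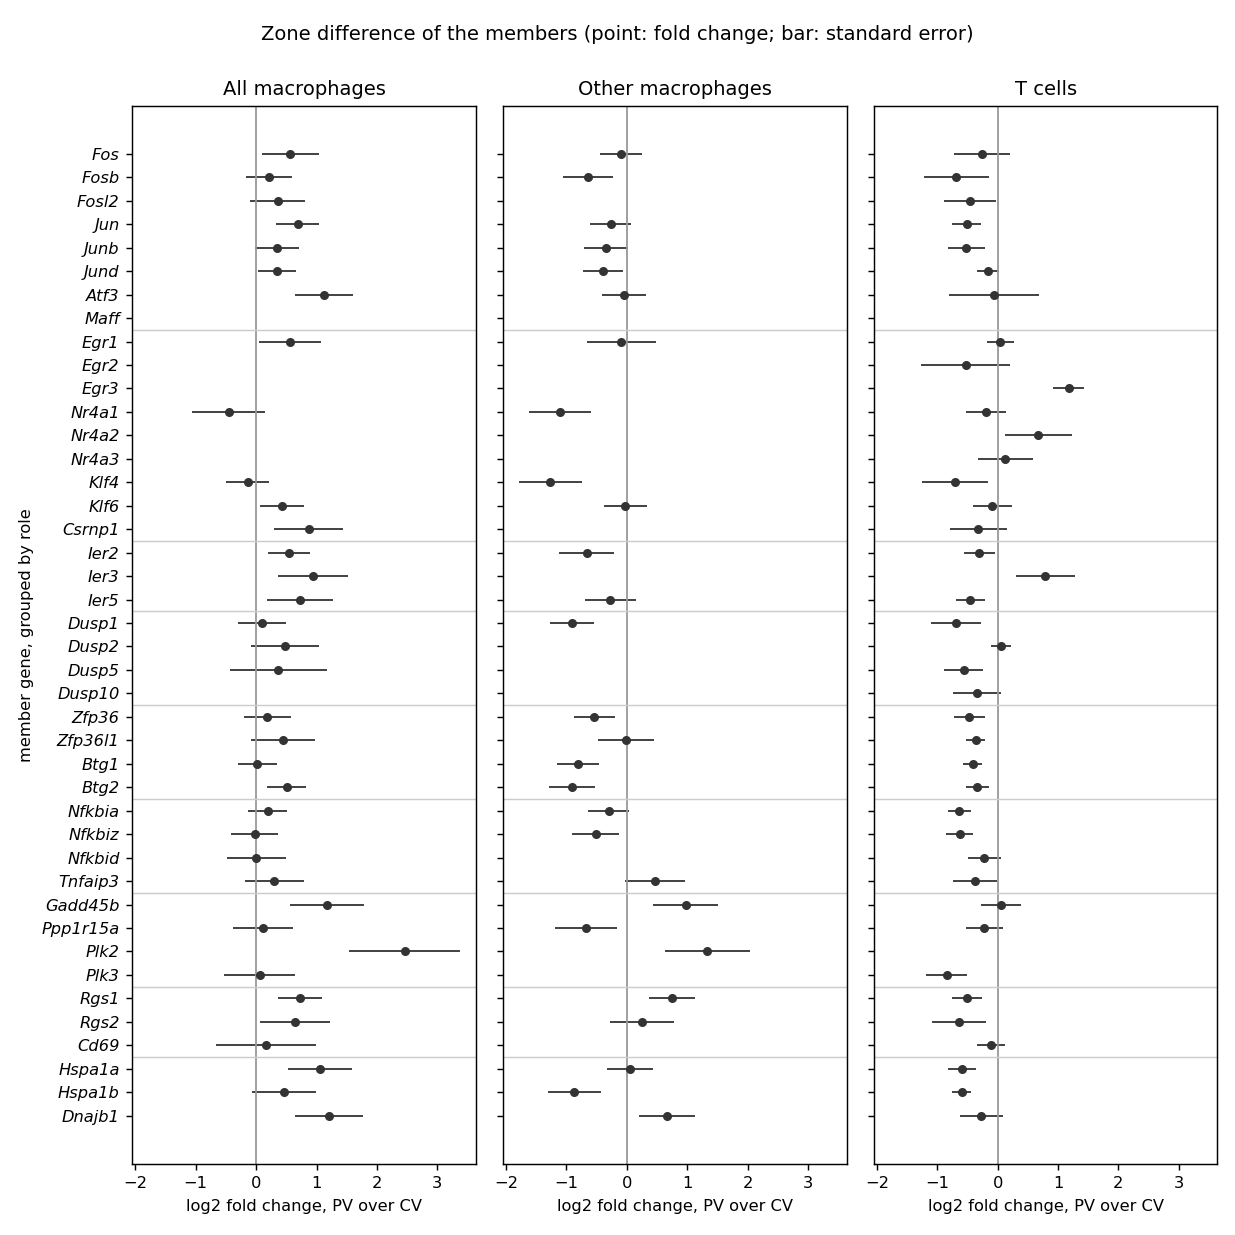
Log2 difference of PV over CV (x axis) for each tested member (y axis, by role) in all macrophages, other macrophages and T cells, as a point with its standard error as a bar. No member passed the test, and 33 of 36 points are above 0 in all macrophages, 7 of 28 in other macrophages and 7 of 40 in T cells.

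The libraries of a zone differed from each other across much of the list. Taking members with at least 20 UMIs in a class, PV replicate 1 was the lowest library for 29 of 42 members in T cells and 30 of 32 in B cells, and CV replicate 1 the highest for 30 of 42 in T cells. PV replicate 2 was the lowest for 23 of 32 members in neutrophils, CV replicate 2 for 38 of 39 in Kupffer cells and for 22 of 36 in cDC1. So no library was low for the list in every class, and the 2 libraries of a zone could lie far apart. Junb in T cells measured 535, 1097, 1434 and 856 CPM, lowest in PV replicate 1 and highest in CV replicate 1. Fos measured 171, 653, 609.9 and 365 CPM there, lowest in PV replicate 1 and highest in PV replicate 2.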

How the data were processed

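Droplet 3′ libraries (10x Chromium v3.1) of sorted CD45+ liver cells were counted with Cell Ranger 4.0.0 on mm10, per the submitters' processing notes, and the deposited matrices hold raw UMI counts per gene and barcode, 1 per library. The sources used here do not give the cell calling settings or annotation. Cells with at least 200 genes and at most 10% mitochondrial UMIs were kept, a barcode present in several libraries was kept only where at least 70% of its UMIs lay, and a class needed at least 3 of its markers. Scrublet marked 2, 7, 1 and 2 doublets, which were kept and left out in an alternative. Counts were summed per library and class of at least 10 cells and tested with edgeR 4.0.16 (R 4.3.3, TMM scaling, quasi-likelihood, filter on low counts, Benjamini-Hochberg threshold 0.05) over all genes, with the library as a block for classes and with no block for PV against CV. A planned comparison of T cell subsets is not reported here. The scripts were tested on simulated data. Alternatives were DESeq2 1.42.0, its size factors, no filter, other cell filters and gates, thinning to 2000 UMIs (96 cells were too shallow), each library left out and the replicate number as a block. The members and lists were chosen with earlier results of these data known. Genes were named by a fixed rule: those past the test with the largest differences in every library, those with the smallest p that did not pass, and the most abundant in each class. Others are named to account for every member.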

Additional observations from a re-analysis of the deposited data

How the results depend on the processing

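NK cells and ILC1 had 15 members called and 8 to 19 without 1 library (14.3% to 23.4% of all genes). For PV against CV, where no member was called, no filter gave 5 in cDC1 (0.391% of all genes), 1 in all macrophages (0.427%) and 1 in neutrophils (0.0257%), and the added setting of Kupffer cells only, without PV replicate 1, gave 1 (0.125%). Leaving out 1 library gave 0 to 13 in B cells (0.045% to 0.805% of all genes), 0 to 8 in cDC1 (0% to 1.74%), 0 to 6 in all macrophages (0.329% to 4.55%), 0 to 8 in neutrophils (0% to 3.57%), 0 to 4 in other macrophages (0.484% to 3.48%) and 0 to 16 in T cells (0.166% to 0.816%). The replicate number as a block gave 2 members in cDC1 (Rgs1 and Dusp10, 0.314% of all genes) and 1 in all macrophages (Plk2, 0.0869%), and changed no other count of members. Same-numbered libraries deviated together with correlations of -0.110 in B cells, 0.109 in cDC1, 0.016 in all macrophages, 0.247 in neutrophils, -0.027 in other macrophages and 0.142 in T cells, so the numbers were not shown to pair them, and the crossed pairing in B cells called 1 gene and 0 members. These log2 differences changed sign, and the cause was not tested. With shared barcodes left out they were 0.0758 for Plk3 in cDC1, 0.0012 for Ier2 in Kupffer cells, 0.0109 for Rgs2 in neutrophils, -0.858 for Nfkbia and -1.23 for Tnfaip3 in other macrophages, and -0.31 for Rgs1 between zones in all macrophages. After thinning they were 0.22 for Ier2 in Kupffer cells, and -0.072 for Nfkbia and -0.69 for Plk3 in other macrophages. With at least 20 cells per sum they were 0.03 for Rgs2 in neutrophils and -0.25 for Tnfaip3 in other macrophages. With cluster classes they were 0.21 for Zfp36l1 in NK cells and ILC1 and 0.34 for Gadd45b in other macrophages. With neutrophil sums left out they were 0.20 for Gadd45b in other macrophages and 0.040 for Csrnp1 in T cells. Between zones in B cells Klf4 ran from -7.29 without PV replicate 2 to 0.14 without CV replicate 1 and Egr3 from -2.52 without PV replicate 2 to 1.64 without PV replicate 1. Thinning lowered the number of all genes called among classes from 4743 to 1547, and no filter raised it to 8096. PV against CV in cDC1 with shared barcodes left out, and in other macrophages with cluster classes, was not run. Depth limits rare members in neutrophils, where 0 UMIs allow up to 10.9 CPM.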

Other observations

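In cDC2, dendritic cells that prime CD4+ T cells, only the PV libraries held at least 10 cells, so no zone comparison was made. Members took 0.868% of their UMIs in PV replicate 1 (12 cells) and 3.22% in PV replicate 2 (19 cells). Across these sums Hspa1a measured 1264 to 2647 CPM (mean 1956) and Hspa1b 1634 to 3116 (mean 2375). Both means were above those of other macrophages, at 1796 and 1841. Jun measured 431 to 2234 CPM in cDC2 (mean 1332), below the mean of 1915 in other macrophages. Plasmacytoid dendritic cells reached 10 cells only in PV replicate 2, where members took 1.90% of UMIs in 16 cells. In that sum Jun measured 2622 CPM, Hspa1a 348, Hspa1b 690 and Cd69 582. Neither cDC2 nor plasmacytoid dendritic cells entered the test among classes.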
